A study of Rattus norvegicus with 12 samples.

Results

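Cortivazol (CVZ) is a synthetic glucocorticoid with a phenylpyrazole group fused to its steroid A ring, and its effect on gene expression in primary cultures of neonatal rat ventricular cardiomyocytes was measured after 3 h. The comparison held 4 of the 12 arrays of the series: CVZ and ethanol vehicle, each with 1 array in each of 2 experiments (n = 2), so that every change could be taken within an experiment. The cells came from the ventricles of 1-day-old Wistar rats, had been separated from fibroblasts by differential adhesion, and had spent 24 h in OPTI-MEM before the exposure. Arrays of corticosterone (COR) and aldosterone (ALD), 1 of each in each experiment, served in a few side-by-side values and in the estimate of the spread. The arrays with the antagonist RU486 (10 µM) were not used. The doses of CVZ, COR and ALD are not given in the labels. Genes were selected if CVZ and vehicle differed in the same direction by at least 2-fold in both experiments. A lack of overlap between arrays, where stated below, describes genes picked for their change and is no further support.

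Glucocorticoids bind the glucocorticoid receptor (GR), a ligand-activated transcription factor of the nuclear receptor family. The bound receptor raises transcription from genes with glucocorticoid response elements, which consist of a pair of inverted AGAACA hexamers, and lowers other genes, many of them inflammatory, in part through other transcription factors. Cardiomyocytes express the receptor, and in heart and skeletal muscle glucocorticoids are known for actions on fuel use, protein turnover and contractile function. Their hypertrophic and metabolic effects are usually described through a small set of targets such as Fkbp5, Klf15 and Per1, and the account below leaves these aside in favour of the rest of the array.

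Signals are given relative to the median of their array, so that 1 is the median probe set, and the 2 values of a group are those of experiments 1 and 2. Changes are log2 differences of CVZ minus vehicle, fitted with the experiment as a block and given with their standard error. The p-values are adjusted (Benjamini-Hochberg, limma) over all 18625 probe sets tested, and a gene is said to have risen or fallen where the adjusted p was below 0.05. Nothing in the labels says whether the experiments were separate cell preparations, and the p-values therefore reflect no more than how far these arrays scatter. In cultures of mixed cells a lower signal can come from fewer cells of a type or from less RNA per cell, and these cannot be told apart. The ratios of 3′ to 5′ GAPDH control signals were 1.04 and 1.10 on the CVZ arrays, against 1.08 and 1.07 on the vehicle arrays. Those of beta-actin were 2.48 and 2.16 with CVZ, against 2.16 and 2.20 with vehicle, and those of hexokinase 1.90 and 2.17 with CVZ, against 1.71 and 2.28 with vehicle. Summed cardiomyocyte markers, such as the troponins and Myh6, were 3233 and 3191 with CVZ, against 3152 and 2888 with vehicle. Summed fibroblast markers were 605 and 304 with CVZ, against 601 and 296 with vehicle, so that the experiments differed more than the treatments.

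Of the 18625 probe sets, 351 (1.88%) were at least 2-fold higher with CVZ in both experiments and 124 (0.666%) at least 2-fold lower. At 1 probe set per gene these were 192 of 10118 named genes (1.9%) and 65 (0.642%). Another 12 genes moved at least 2-fold in opposite directions in the experiments, such as D2hgdh (log2 −1.71 in experiment 1 and 2.46 in experiment 2), and in the 6 with the largest such changes no signal exceeded 1.51. More genes were at the large end among the rises: 47 genes were at least 4-fold higher in both experiments and 3 (Ccl7, Ccl2 and Rcor2) at least 4-fold lower, and 11 were at least 8-fold higher and 0 at least 8-fold lower. The level filter uses the mean of 8 arrays, most of them with a steroid. Without it 858 probe sets were 2-fold higher in both experiments and 527 lower, and with trimmed-mean scaling 324 and 157. The part of the filter in the split was not tested. By the adjusted p, 563 genes rose (5.56%) and 351 fell (3.47%), among them 185 of the 192 and 59 of the 65. The counts of the gene lists below are to be read beside these shares. The 192 and 65 genes were picked for their change on the same arrays. That most of them were called is largely given by this choice and is no further support. In probe sets the split was 938 rises and 590 falls, and 816 and 798 when the arrays were scaled to equal trimmed means in place of equal medians. Without the vehicle array of experiment 1 they were 825 and 275. Over all genes tested the median change was log2 0.01.

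**Figure D1:**
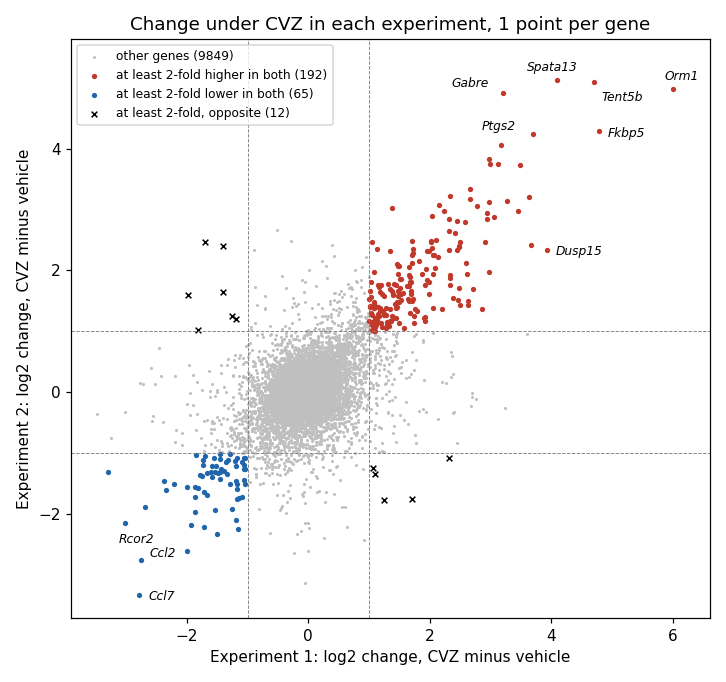
Change under CVZ in experiment 1 (x axis) and experiment 2 (y axis), each as a log2 difference of CVZ minus vehicle, for 10118 genes. Red points are the 192 genes at least 2-fold higher in both, blue points the 65 at least 2-fold lower in both, crosses the 12 that moved 2-fold in opposite directions, and dashed lines mark a 2-fold change; the red points reach beyond log2 4 in both experiments and the blue ones reach about log2 −3, at Ccl7.

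The selection was not sharp at its edge. Just inside it lay Ppfibp1 (log2 1.01 and 1.17 in experiments 1 and 2) and Dusp7 (1.09 and 1.01), and just outside it Lmod2 (0.99 and 1.26) and Ier3 (−1.09 and −0.999). Of the 192 genes, 62 had other tested probe sets, all of which moved in the same direction, and for 46 of them another probe set was also 2-fold higher in both experiments. Of the 65 lower genes, 14 had other probe sets, again all in the same direction. The vehicle signal of 30 of the higher genes and the CVZ signal of 15 of the lower genes lay below the level of 0.628 that a mean had to pass for testing. The size of a change depends on the pseudocount in those genes, which include Gabre, Sult1a1, Hpgd, Dusp15, Rasgrp1, Otulinl, Rcor2 and Ccl7 below. Such genes can pass the filter through the arrays where they are high. Any calls among them stay in the counts of genes and lists, but are no support for a change. Their changes are given as values only.

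Outside the usual target lists, Arrdc2, an arrestin-domain protein, was at 9.94 and 7.03 with CVZ, against 1.23 and 0.857 with vehicle (log2 2.94 ± 0.19). Rhobtb1, a BTB-domain protein, had signals of 25.9 and 26.8 with CVZ, against 3.06 and 3.57 with vehicle, without overlap (log2 2.97 ± 0.12, adjusted p = 2.1e-11). Rises of more than log2 2 in both experiments were also seen for Dcp1b, a cofactor of mRNA decapping (log2 2.69 ± 0.17), and for Etfbkmt, which methylates the electron transfer flavoprotein of mitochondria (log2 2.69 ± 0.14). The same held for Ivns1abp, a kelch-repeat protein (log2 2.48 ± 0.11), Gpcpd1, which breaks down glycerophosphocholine (log2 2.61 ± 0.23), and Capn10, a calpain protease (log2 2.43 ± 0.15). Qsox1, an oxidase that makes disulfide bonds in secreted proteins, had signals of 16.4 and 18.2 with CVZ, against 2.85 and 3.21 with vehicle (log2 2.49 ± 0.14). Gabre, the epsilon subunit of the GABA-A receptor, a chloride channel best known from neurons, had 2.79 and 5.50 with CVZ, against 0.242 and 0.118 with vehicle. Its vehicle signals lay below the testing level, and it was tested because it was high on other arrays, so its change of log2 4.05 ± 0.52 is given as a value with no test.

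**Figure D2:**
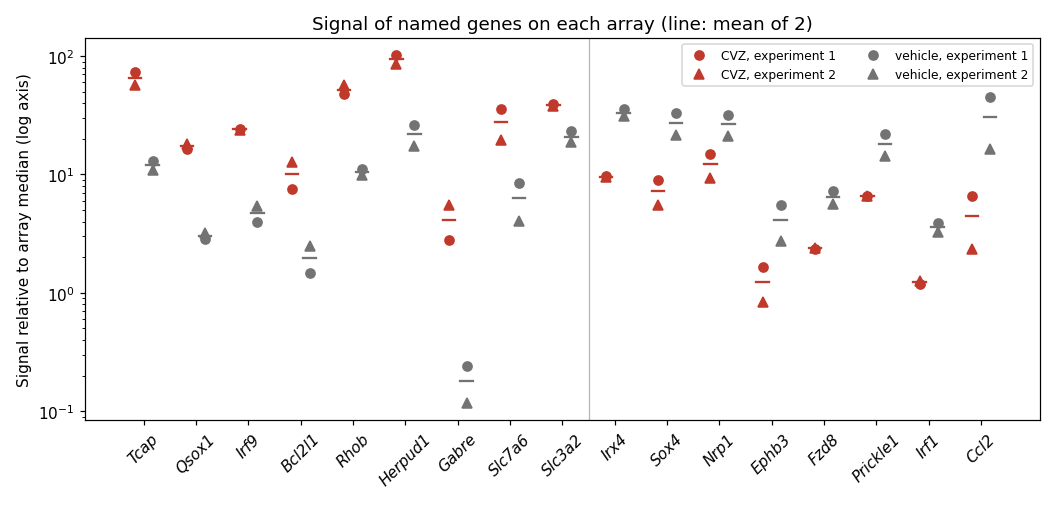
Signal relative to the array median (log axis) of 17 genes on the CVZ arrays (red) and the vehicle arrays (grey); circles are experiment 1, triangles experiment 2 and lines the mean of both. The 9 genes left of the vertical line were higher with CVZ and the 8 right of it lower. They were picked among genes that changed the same way in both experiments, so the separation of the arrays is largely given by this choice.

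The promoters of all tested genes were searched for the receptor's hexamer AGAACA (either strand) in the 250 bases before and the 50 bases after the start. Of 148 higher genes with a promoter sequence, 10.8% held it, as did 6.25% of 48 lower genes and 12% of all 8491 tested genes with a promoter. The full inverted pair, with any 3 bases between the arms, was in 0 of these promoters of higher genes and in 0 of all 8491. TGACTCA, the motif of AP-1 (either strand), was in 4.05% of higher, 6.25% of lower and 3.26% of all, and TGACGTCA, that of CREB, in 3.38%, 0% and 3.37%. The hexamer was thus no more frequent near the starts of the 2-fold higher genes than near those of other genes, and a match or its absence in this window is a description of the letters only. The 3 genes with the hexamer whose smaller change of the 2 experiments was largest are shown with the 250 bases before their start, from RefSeq (build GRCr8), on the coding strand and with the hexamer in capitals. They are Gabre, at chrX:155120722-155120971 on the minus strand with the hexamer starting 39 bases upstream, Ccl20, a chemokine gene at chr9:91836909-91837158 on the plus strand with the hexamer 74 bases upstream, and Sult1a1, a phenol sulfotransferase gene at chr1:190706113-190706362 on the minus strand with the hexamer 89 bases upstream.
Gabre: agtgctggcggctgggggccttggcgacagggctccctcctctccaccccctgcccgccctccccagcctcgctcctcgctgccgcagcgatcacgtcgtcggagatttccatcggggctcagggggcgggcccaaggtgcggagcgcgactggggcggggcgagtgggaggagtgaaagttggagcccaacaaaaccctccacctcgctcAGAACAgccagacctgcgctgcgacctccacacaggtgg
Ccl20: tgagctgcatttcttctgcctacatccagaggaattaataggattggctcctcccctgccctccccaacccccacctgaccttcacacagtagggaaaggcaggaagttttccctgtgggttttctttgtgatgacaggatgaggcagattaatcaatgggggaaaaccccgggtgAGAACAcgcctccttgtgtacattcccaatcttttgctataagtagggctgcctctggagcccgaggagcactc
Sult1a1: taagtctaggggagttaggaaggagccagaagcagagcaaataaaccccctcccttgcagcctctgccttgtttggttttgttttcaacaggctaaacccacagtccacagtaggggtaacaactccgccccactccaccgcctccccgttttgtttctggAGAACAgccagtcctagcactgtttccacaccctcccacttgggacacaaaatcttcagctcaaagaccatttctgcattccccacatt
The changes of these 3 genes were log2 4.05 ± 0.52, 3.42 ± 0.18 and 3.61 ± 0.21, in that order.

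Several genes of the contractile apparatus rose. Tcap encodes telethonin, which caps titin at the Z-disc, and its signals were 73.2 and 56.6 with CVZ, against 13.02 and 10.8 with vehicle. The CVZ arrays were each at least 4 times the vehicle arrays (log2 2.43 ± 0.10, adjusted p = 4.7e-11). Abra, an actin-binding protein of striated muscle, had signals of 74.1 and 66.8 with CVZ, against 18.2 and 11.8 with vehicle (log2 2.26 ± 0.11, adjusted p = 1.3e-10). Lrrc10, a leucine-rich repeat protein of cardiomyocytes, rose by log2 1.09 ± 0.07, with signals of 156 and 156 with CVZ, against 72.4 and 73.9 with vehicle. Lmod2, a leiomodin that lengthens thin filaments, rose by log2 1.12 ± 0.09, and Myoz2, a Z-disc partner of calcineurin, by log2 0.78 ± 0.08. In the list of sarcomere and Z-disc genes 7 of 31 rose and 1 fell (over all genes 5.56% and 3.47%), with a median change of log2 0.08. The count of rises was 3 without the CVZ array of experiment 2 and 5 under quantile or trimmed-mean scaling, while Tcap, Lmod2 and Myoz2 stayed called whichever array was left out. Of 34 genes of integrins, adhesion and junctions 5 rose and 3 fell, and without the CVZ array of experiment 1 there was 1 rise. The desmosomal proteins went both ways: Jup and Dsg2 fell, by log2 0.58 ± 0.10 and 0.48 ± 0.10, and Dsc2 was at log2 0.67 ± 0.17, its call being lost without either CVZ array or without the vehicle array of experiment 2 (log2 0.50 to 0.69, adjusted p = 0.093 to 0.22). Gja1, the connexin of ventricular gap junctions, fell by log2 0.54 ± 0.09, with its other probe set at log2 −1.28.

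Several genes linked to cell shape and adhesion changed. Rhob, a small GTPase, had signals of 47.5 and 56.8 with CVZ, against 11.1 and 9.98 with vehicle. Every CVZ value of Rhob was more than 4 times every vehicle value (log2 2.30 ± 0.11, adjusted p = 3e-10). Zyx, the focal adhesion protein zyxin, was at 28.6 and 31.7 with CVZ, against 9 and 8.26 with vehicle (log2 1.80 ± 0.11), and Map1b, which binds microtubules, rose by log2 1.41 ± 0.14. Cdc42ep2 and Cdc42ep3 are effectors of the same GTPase, Cdc42. Cdc42ep2 had signals of 17.5 and 24.5 with CVZ, against 1.95 and 1.76 with vehicle (log2 3.43 ± 0.16). Cdc42ep3 had 4.62 and 6.74 with CVZ, against 12.7 and 14.4 with vehicle (log2 −1.27 ± 0.14), and so moved the other way with no overlap in either gene. Other actin-linked genes among the 2-fold rises were Pfn2, a profilin (log2 1.85 ± 0.15), Wipf3, a partner of WASP proteins (log2 1.79 ± 0.17), and Baiap2, which bends membranes at the cell edge (log2 1.59 ± 0.20).

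In the list of insulin, FoxO and mTOR signalling 9 of 36 rose and 2 fell (over all genes 5.56% and 3.47%), with a median of log2 0.15. The largest of these rises was that of Sesn1, a sestrin upstream of mTORC1, and Pik3r1, a regulatory subunit of phosphoinositide 3-kinase, had signals of 13.8 and 10.2 with CVZ, against 2.49 and 1.97 with vehicle (log2 2.39 ± 0.15). Foxo3 rose by log2 1.84 ± 0.11, and Depp1, a FoxO target, by log2 1.60 ± 0.09. Ddit4 and Ddit4l encode related inhibitors of mTORC1. Ddit4 had signals of 14.3 and 12.3 with CVZ, against 5.97 and 5.10 with vehicle (log2 1.26 ± 0.12), and Ddit4l had 3.13 and 2.61 with CVZ, against 6.59 and 7.18 with vehicle (log2 −1.25 ± 0.20). Rheb, the GTPase that switches mTORC1 on, rose by log2 0.51 ± 0.08. Eef2k, the kinase that slows translation elongation, rose by log2 1.49 ± 0.17 and was the only riser among 39 genes of ribosome biogenesis and translation. The list's rises numbered 6 without the vehicle array of experiment 2.

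In the list of cell cycle brakes and D cyclins 6 of 31 genes rose and 6 fell (over all genes 5.56% and 3.47%). Tob2, an antiproliferative protein, rose by log2 2.20 ± 0.15, and Cdkn1a, the inhibitor p21, by log2 1.53 ± 0.10. Cdkn1b, the inhibitor p27, fell by log2 0.71 ± 0.11, with signals of 21.8 and 12.5 with CVZ, against 31.5 and 23.2 with vehicle, but its call was lost without the variance trend (adjusted p = 0.067) and with the mean of its probe sets (log2 −0.50, adjusted p = 0.071). Btg1, a relative of Tob2, was at log2 −0.70 ± 0.08. Mxd4 and Max, partners in the Myc network, rose by log2 1.04 ± 0.15 and 1.17 ± 0.11. Mycn was at log2 −1.44 ± 0.42, and its call was lost without any 1 of the CVZ or vehicle arrays (log2 −1.53 to −1.34, adjusted p = 0.12 to 0.25). The falls of the list numbered 2 without the vehicle array of experiment 1. None of 42 proliferation and replication genes was called.

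Of 26 Ras-family exchange factors and small GTPases 5 rose and 3 fell (over all genes 5.56% and 3.47%). Rasgrp1, an exchange factor for Ras, had signals of 3.06 and 3.23 with CVZ, against 0.502 and 0.399 with vehicle (log2 2.64 ± 0.23), while Rasgrp3 had 7.86 and 8.71 with CVZ, against 17.99 and 13.04 with vehicle (log2 −0.88 ± 0.14). The vehicle signals of Rasgrp1 lay below the testing level, so its change is given as a value with no test. Of 28 MAPK phosphatases and growth signal brakes, 7 rose and 4 fell, with a median of log2 −0.09. Dusp15, a dual-specificity phosphatase, had 3.83 and 4.46 with CVZ, against 0.189 and 0.832 with vehicle (log2 3.13 ± 0.33). Its mean vehicle signal lay below the testing level, so this change too is a value with no test. Dusp5, which inactivates nuclear ERK, had 4.62 and 1.60 with CVZ, against 10.3 and 7.84 with vehicle (log2 −1.70 ± 0.20). Lrig1, which promotes the degradation of ErbB receptors, rose by log2 1.51 ± 0.13, and Rasa1, a GTPase-activating protein of Ras, fell by log2 0.87 ± 0.11. The falls numbered 2 without the CVZ array of experiment 1.

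**Figure D3:**
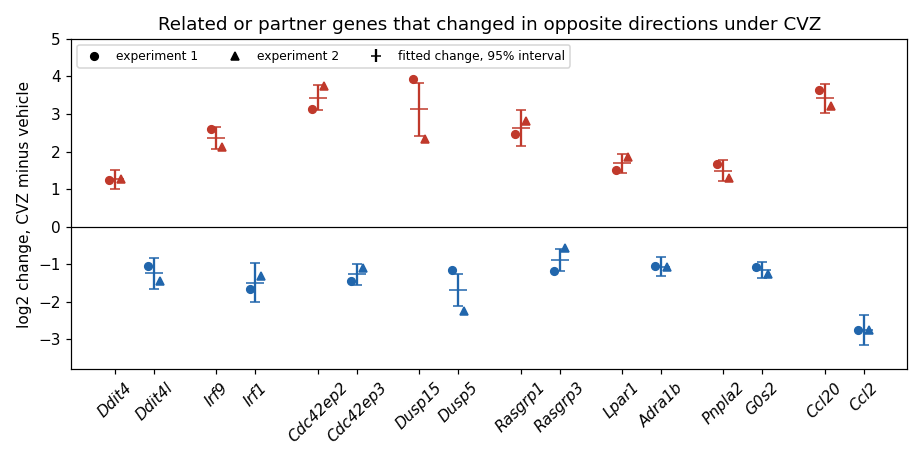
log2 change of CVZ minus vehicle for 8 pairs of related or partner genes; circles are experiment 1, triangles experiment 2, and horizontal ticks with bars the fitted change with its 95% interval. The pairs were picked after their values were seen because one member (red) was higher with CVZ and the other (blue) lower. Other relatives, such as Fzd1 and Fzd8, Id2 and Id3, Epha3 and Epha4 or Slc7a5 and Slc7a6, moved the same way. The mean vehicle signals of Rasgrp1 and Dusp15 lay below the testing level, so their changes are values with no test. The calls of Ddit4l and Rasgrp3 were lost without the variance trend.

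Calls among genes of amino acid transport and metabolism were mostly rises. Of 27 solute carriers 8 rose and 1 fell, and of 28 amino acid enzymes 7 rose and none fell, with medians of log2 0.01 and 0.22. Over all genes 5.56% rose and 3.47% fell. Slc7a6, a light chain of the exchangers for cationic and neutral amino acids, had signals of 35.7 and 19.4 with CVZ, against 8.53 and 4.02 with vehicle, with no overlap (log2 2.15 ± 0.15, adjusted p = 2.7e-08). Slc7a5, the light chain of a transporter for large neutral amino acids, rose by log2 1.20 ± 0.17. Slc3a2, the heavy chain that both of these need at the cell surface, had 39.1 and 37.6 with CVZ, against 23.2 and 18.6 with vehicle (log2 0.88 ± 0.14). Slc39a14, which carries zinc and iron, rose by log2 1.21 ± 0.10. Amd1 and Odc1, the decarboxylases of S-adenosylmethionine and ornithine in polyamine synthesis, rose by log2 1.59 ± 0.13 and 1.21 ± 0.11. Got1, the cytosolic aspartate aminotransferase, rose by log2 0.69 ± 0.10. None of the 19 aminoacyl-tRNA synthetases tested was called, and of 34 genes of ATF4 and endoplasmic reticulum stress 4 rose. Of these, Herpud1, a membrane protein of degradation from the endoplasmic reticulum, had 102 and 86.6 with CVZ, against 26.4 and 17.4 with vehicle (log2 2.13 ± 0.09), and Edem1, which marks misfolded glycoproteins, rose by log2 1.68 ± 0.11. The solute carriers gave 5 rises without the CVZ array of experiment 1.

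Some genes of lipid storage and synthesis, picked here rather than counted as a list, were called. In the list of fatty acid uptake and oxidation 2 of 23 genes rose and 1 fell (over all genes 5.56% and 3.47%). In that of cholesterol export and lipoprotein genes 1 of 15 rose and 0 fell. Pnpla2 encodes adipose triglyceride lipase, and G0s2 its inhibitor. Pnpla2 had signals of 14.6 and 14.02 with CVZ, against 4.52 and 5.66 with vehicle (log2 1.49 ± 0.13), and G0s2 had 27.5 and 18.8 with CVZ, against 57.7 and 45.2 with vehicle (log2 −1.16 ± 0.10, adjusted p = 2.9e-07). The groups overlapped in neither gene. Dgat2, which completes triglyceride synthesis, was at 8.42 and 16.4 with CVZ, against 2.53 and 3.38 with vehicle (log2 1.98 ± 0.17), and Plin4, a lipid droplet coat protein, rose by log2 1.80 ± 0.18. Lpin1, a phosphatidate phosphatase, rose by log2 1.26 ± 0.11, and Srebf1, a transcription factor of lipid synthesis, by log2 1.52 ± 0.12. Sgms1, a sphingomyelin synthase, was at 27.1 and 26.5 with CVZ, against 7.38 and 6.85 with vehicle (log2 1.90 ± 0.11). In the sterol list no gene of 17 rose and 6 fell (over all genes 5.56% and 3.47%), with a median of log2 −0.39. Msmo1, a methylsterol oxidase, had signals of 26.1 and 13.8 with CVZ, against 42.6 and 25.7 with vehicle (log2 −0.80 ± 0.09), and Cyp51, the lanosterol demethylase, fell by log2 0.50 ± 0.09. The sterol falls numbered 2 without the CVZ array of experiment 1, and 8 or 9 under the other scalings. Of 28 genes of the citrate cycle and respiratory chain none was called, and without the vehicle array of experiment 1 there were 2 rises.

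Calls among regulators of cell survival and death were all rises. Bcl2l1, which encodes the survival protein Bcl-xL, had signals of 7.56 and 12.7 with CVZ, against 1.47 and 2.47 with vehicle (log2 2.32 ± 0.18, adjusted p = 5.5e-08). Its counterpart Bcl2l11, the death-promoting protein Bim, rose too, by log2 0.96 ± 0.12. The 2 other tested probe sets of Bcl2l11 were at log2 0.42 and 0.36, and its call was lost with the mean of its probe sets. Of 34 apoptosis regulators 6 rose and none fell (over all genes 5.56% and 3.47%). Pim3, a survival kinase, rose by log2 1.52 ± 0.11. Irf9, the DNA-binding part of the complex through which type I interferons act, had 24.5 and 23.8 with CVZ, against 3.99 and 5.39 with vehicle (log2 2.36 ± 0.14). Irf1, an interferon regulatory factor induced by inflammatory signals, had 1.19 and 1.27 with CVZ, against 3.91 and 3.27 with vehicle (log2 −1.49 ± 0.24). These were the only calls among 28 interferon-response genes, 1 in each direction, which is near the shares over all genes. Without the vehicle array of experiment 2 there were 3 rises. Trim25, a ubiquitin ligase of antiviral signalling, rose by log2 1.56 ± 0.12.

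Of 28 G protein regulators and receptors 3 rose and 5 fell, of 20 VEGF receptors and vascular genes 4 rose and 1 fell, and of 13 coagulation genes 2 rose and none fell. Over all genes 5.56% rose and 3.47% fell, so the 1 vascular fall is near that share. The G protein list had 1 rise without the CVZ array and 1 fall without the vehicle array of experiment 1. Lpar1, a receptor for lysophosphatidic acid, had signals of 24.7 and 17.8 with CVZ, against 8.59 and 4.88 with vehicle (log2 1.69 ± 0.12). Adra1b, the alpha-1B adrenergic receptor, had 7.39 and 6.55 with CVZ, against 15.4 and 13.9 with vehicle (log2 −1.07 ± 0.12). Thbd, the thrombin receptor thrombomodulin, was at 5.33 and 2.70 with CVZ, against 0.815 and 0.651 with vehicle (log2 2.28 ± 0.26), and it rose alongside F3, tissue factor, which starts coagulation. Hpgd, which inactivates prostaglandins, was at log2 2.60 ± 0.43. Its vehicle signals lay below the testing level, and this change is given as a value with no test. Ptgfr, the receptor for prostaglandin F2-alpha, fell by log2 1.68 ± 0.15. Of 18 genes of prostanoid synthesis and receptors 6 rose and 1 fell (over all genes 5.56% and 3.47%), with a median of log2 0.39. Kdr, a VEGF receptor of endothelial cells, rose by log2 1.83 ± 0.18, with signals of 12.6 and 12.5 with CVZ, against 4.93 and 2.45 with vehicle. The summed signal of the 10 endothelial markers on the array was 34.5 and 26.8 with CVZ, against 21.4 and 13.5 with vehicle, and without Kdr it was 21.97 and 14.3 with CVZ, against 16.5 and 11.03 with vehicle. Of the 8 that were tested 2 rose, Kdr and Pecam1, the call of Pecam1 being lost without any 1 array other than the ALD array of experiment 2 (log2 1.03 to 1.12, adjusted p = 0.05 to 0.23). Vwf and Cldn5 lay below the testing level, and the part of endothelial cells in these results was not tested. Nrp1, a co-receptor of VEGF and semaphorins, fell, with signals of 15 and 9.42 with CVZ, against 31.9 and 21 with vehicle (log2 −1.12 ± 0.11, adjusted p = 1.9e-06).

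Among 28 cardiac transcription factors 9 fell and 3 rose, with a median of log2 −0.28, against 3.47% of all genes falling. Irx4, a homeodomain factor of the ventricle, had signals of 9.66 and 9.48 with CVZ, against 35.6 and 31.1 with vehicle. Its CVZ values lay close together and far below either vehicle value (log2 −1.79 ± 0.11, adjusted p = 4.3e-09). Sox4, a factor of outflow tract development, had 9 and 5.53 with CVZ, against 32.8 and 21.7 with vehicle (log2 −1.91 ± 0.12), and its 3 other tested probe sets lay between log2 −2.35 and −1.93. Prox1, a homeobox factor, fell by log2 1.20 ± 0.16, and Mef2c by log2 0.78 ± 0.11. Gata6 was among the rises, at log2 0.86 ± 0.11, but its other probe set was at log2 0.27 and the mean of both at 0.56 (adjusted p = 0.093). The falls numbered 4 without the vehicle array of experiment 1 and 11 under either other scaling. Lbh, a nuclear regulator in heart development, was at 20.6 and 30.96 with CVZ, against 52.7 and 68.4 with vehicle (log2 −1.25 ± 0.09). Rcor2, a corepressor subunit, was lower by log2 2.59 ± 0.39, a value with no test, with CVZ signals of only 0.171 and 0.442.

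Calls among Wnt and guidance genes were all falls. In the Wnt list 7 of 24 genes fell and none rose (median log2 −0.18), and in the list of semaphorins, ephrins and axon guidance 8 of 28 fell and none rose (median log2 −0.24). Over all genes 3.47% fell and 5.56% rose. Fzd8, a Wnt receptor, had signals of 2.36 and 2.40 with CVZ, against 7.21 and 5.65 with vehicle (log2 −1.40 ± 0.18). Fzd1, its relative, had 27.1 and 34.4 with CVZ, against 55.3 and 51.7 with vehicle (log2 −0.81 ± 0.10). Prickle1, a planar cell polarity protein that stood on no list, had 6.62 and 6.57 with CVZ, against 22.1 and 14.2 with vehicle (log2 −1.42 ± 0.14, adjusted p = 1.5e-06). In none of these 3 did a CVZ array reach a vehicle array. Ephb3, an ephrin receptor, had 1.64 and 0.835 with CVZ, against 5.56 and 2.73 with vehicle (log2 −1.68 ± 0.23), and its relatives Epha3 and Epha4 fell by log2 0.90 ± 0.14 and 1.14 ± 0.18. Sema6d, a transmembrane semaphorin, was the largest fall of its list, and Rtn4rl1, a relative of the Nogo receptor, fell by log2 2.28 ± 0.27. Boc, a co-receptor of hedgehog, fell by log2 1.59 ± 0.26. The Wnt falls numbered 3 without the vehicle array of experiment 1, and the guidance falls 6 without the CVZ array of experiment 1.

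Of 30 growth factors and secreted signals 6 fell and 4 rose (over all genes 3.47% and 5.56%). Fgf9, a fibroblast growth factor, had signals of 1.08 and 1.17 with CVZ, against 3.37 and 3.20 with vehicle (log2 −1.49 ± 0.22), and Ntf3, a neurotrophin, fell by log2 1.37 ± 0.18. Among 37 TGF-beta, BMP and Id genes 5 fell and 3 rose, the rises being near the share over all genes. Bambi, a decoy receptor, fell by log2 1.15 ± 0.16, and Id2 and Id3, inhibitors of basic helix-loop-helix factors, by log2 0.96 ± 0.14 and 0.73 ± 0.13. Adam19, a metalloprotease of heart development, had 7.84 and 8.12 with CVZ, against 22.9 and 20.1 with vehicle (log2 −1.42 ± 0.12). Cxxc5, a zinc finger protein of Wnt and BMP signalling, had 5.04 and 4.83 with CVZ, against 15.5 and 12.02 with vehicle (log2 −1.46 ± 0.14). Each of these last 2 fell to well below either vehicle value. Without the CVZ array of experiment 1 the growth factor list had 1 rise, and without the vehicle array of experiment 1 the TGF-beta list had 3 falls.

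**Figure D4:**
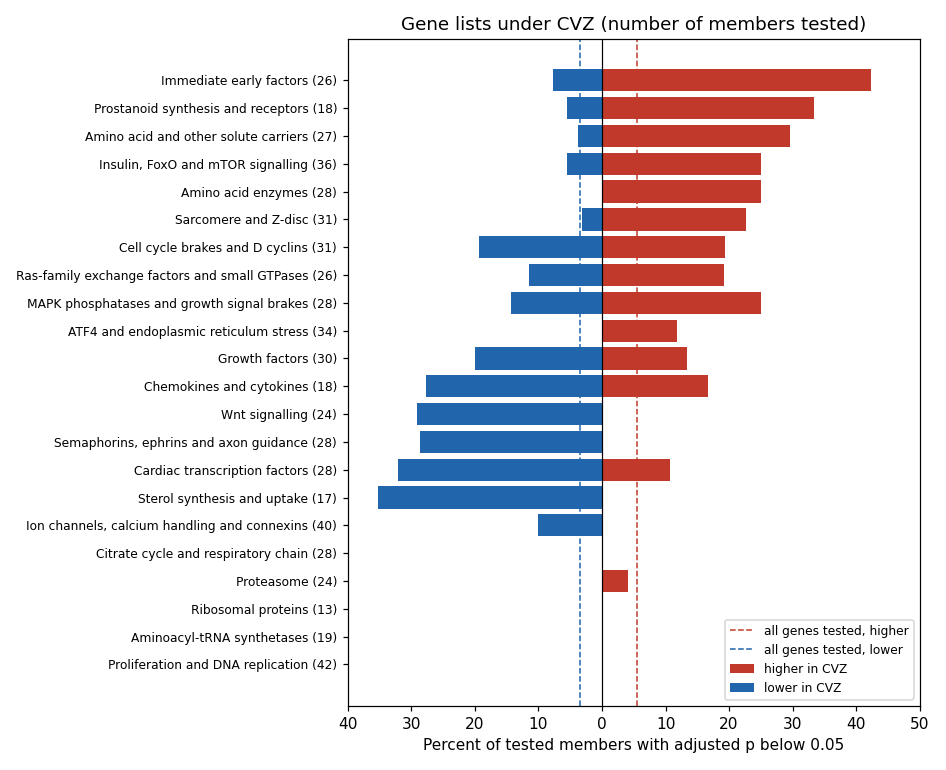
Share of the tested members (number in brackets) of 22 of the 59 gene lists that rose (red, to the right) or fell (blue, to the left) under CVZ at an adjusted p below 0.05, in percent; dashed lines mark the same shares over all 10118 genes, 5.56% and 3.47%. Immediate early factors had the largest share of rises shown (11 of 26) and sterol genes that of falls (6 of 17), while respiratory chain, ribosomal, tRNA synthetase and proliferation genes had none of either.

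The inflammatory genes were not uniform. Of 18 chemokines and cytokines tested 5 fell and 3 rose, with Ccl2 at 6.64 and 2.36 with CVZ, against 45.2 and 16.3 with vehicle, and Ccl20 at 23.7 and 10.6 with CVZ, against 1.85 and 1.09 with vehicle. Of 26 genes of NF-κB signalling and adhesion 4 fell and 2 rose (median log2 −0.35), and Vcam1, an adhesion molecule for leukocytes, had 5.34 and 1.91 with CVZ, against 9.96 and 4.63 with vehicle (log2 −1.07 ± 0.17). Immediate early factors rose in 11 and fell in 2 of 26. For all of these lists the shares over all genes were 5.56% rising and 3.47% falling. Csrnp1, a nuclear protein of this class, had 4.69 and 3.74 with CVZ, against 1.17 and 0.996 with vehicle (log2 1.89 ± 0.22), while Ier3 fell by log2 1.05 ± 0.12. Other genes of large rise were Bcl6, a transcriptional repressor (log2 1.74 ± 0.11), and Irf2bp2, a corepressor (log2 1.70 ± 0.11). Cytokine rises numbered 1 without the CVZ array of experiment 1 and cytokine falls 3 without the vehicle array of experiment 2, and NF-κB falls 2 without the vehicle array of experiment 1.

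Of 13 ribosomal protein genes none was called, and of 24 proteasome genes 1 rose, a share near the 5.56% over all genes. This was Psma6 (log2 0.32 ± 0.07), whose call was lost without either CVZ array (log2 0.35 and 0.29, adjusted p = 0.068 and 0.14). Of 40 genes of ion channels, calcium handling and connexins 4 fell, against 3.47% over all genes, and none rose, with 1 fall without the CVZ array of experiment 2. Of 55 extracellular matrix genes 6 rose, against 5.56% over all genes, and none fell, with Crispld2 far ahead of the others (log2 3.37 ± 0.17), and their rises numbered 2 without the vehicle array of experiment 2. A gene without a call is not shown to have an equal level with and without CVZ.

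COR and ALD were measured against the same vehicle arrays, so their changes share controls with those of CVZ, and with doses not given a difference of ligand and a difference of dose cannot be told apart. Over the 192 genes that were 2-fold higher the median change was log2 1.64 with CVZ, 1.12 with COR and 0.60 with ALD, and over the 65 lower genes −1.43, −0.78 and −0.40. The genes were chosen on their CVZ change, so the order of these medians is no finding. Tested directly, 108 genes (1.07%) were higher with CVZ than with COR and 41 lower (0.405%), and 326 (3.22%) were higher with CVZ than with ALD and 195 lower (1.93%). In probe sets CVZ and COR differed in 219, but in 0 when the experiment was not fitted as a block and in 0 without the variance trend, where 428 and 1580 passed an unadjusted p of 0.05 in limma. Leaving out an array gave counts between 64 (without the COR array of experiment 2) and 278. Otulinl, an inactive relative of the deubiquitinase OTULIN, was at log2 2.92 ± 0.32 with CVZ, 0.48 ± 0.32 with COR and 0.40 ± 0.32 with ALD, and is given with no test because it was high on the CVZ arrays alone and below the testing level with vehicle. Slc7a6 was at 2.15 ± 0.15 with CVZ, 0.71 ± 0.15 with COR and −0.02 ± 0.15 with ALD (CVZ minus COR log2 1.45 ± 0.15, adjusted p = 0.00012). Tcap gave 2.43 ± 0.10 with CVZ, 1.36 ± 0.10 with COR and 0.37 ± 0.10 with ALD, and CVZ exceeded COR by log2 1.07 ± 0.10 (adjusted p = 6.2e-05). For Rasgrp1 and Kdr the difference between CVZ and COR did not pass the test. Rasgrp1 was at 2.64 ± 0.23 with CVZ, 2.58 ± 0.23 with COR and 2.34 ± 0.23 with ALD, and the 95% interval of CVZ minus COR was −0.42 to 0.54. Its vehicle signals lay below the testing level, so its changes against vehicle are values only. Kdr was at 1.83 ± 0.18 with CVZ, 2.00 ± 0.18 with COR and 1.41 ± 0.18 with ALD, with an interval of −0.55 to 0.21 for CVZ minus COR.

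**Figure D5:**
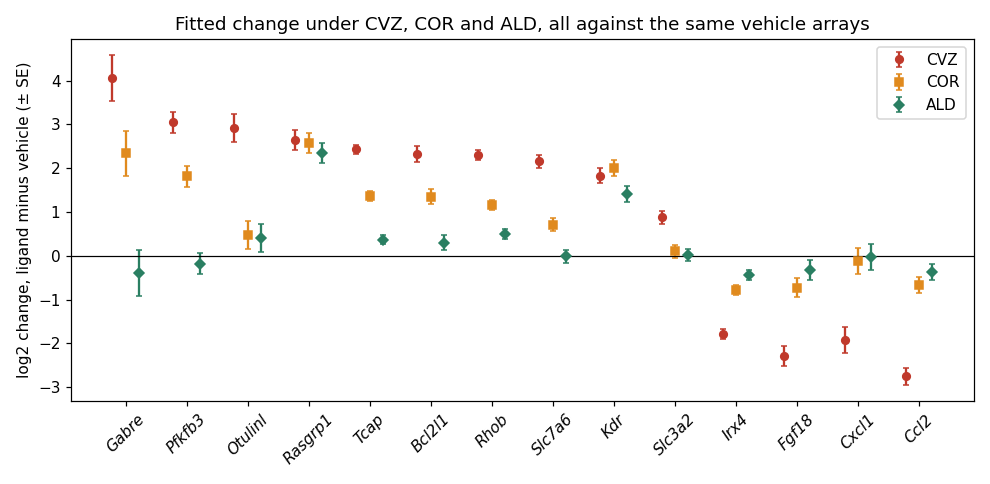
Fitted log2 change against vehicle (± SE) of 14 genes with CVZ (red circles), COR (orange squares) and ALD (green diamonds), n = 2 arrays per ligand and the same 2 vehicle arrays for all. Slc7a6 was higher with CVZ than with COR or ALD, whereas Rasgrp1 lay at 2.64, 2.58 and 2.34 with CVZ, COR and ALD. The genes were picked among those changed by CVZ, so a larger change with CVZ is partly given by this choice, and doses are not given.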

How the data were processed

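Gene expression in cultured cardiomyocytes was measured on Affymetrix rat arrays of 31099 probe sets, 57 of them controls that were left out. The deposited values are linear signal intensities from MAS5, per the submitters' processing notes (version not given), and the deposited intensity of each array has a median of 1. Arrays were grouped by their labels. Probe sets were named through the platform annotation, 20764 by Entrez ID, 2 by accession and 66 by the symbol given there, which made 20832 probe sets of 14218 genes. Another 436 matched several genes and 9831 had no name.

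Values were taken as log2(signal + 0.0682), the pseudocount being the 10th percentile, and 18625 probe sets with a mean above the 40th percentile (a geometric mean signal of 0.628) were tested. With limma 3.58.1 in R 4.3.3 (lmFit, eBayes with trend) the 8 arrays without RU486 were fitted by group and experiment, which leaves 3 residual degrees of freedom and 13.7 from the shared variance, so the errors lean on that shared variance. P-values were adjusted by Benjamini-Hochberg and a threshold of 0.05 was used. Per the labels the number of an array marks a shared experiment, and deviations from group means correlated at 0.514 to 0.568 between groups, so the experiment was kept as a block. Each gene was represented by its probe set of highest mean. A fold change on this scale understates the change of low signals, and the number of arrays limits the precision.

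Genes were named by rule: the 40 rises and 40 falls with the largest smaller change of the 2 experiments, list members at least 2-fold in both, the 4 other members of highest signal in each list, Nr3c1 and Nr3c2, and the 6 largest opposite changes. Not every such gene is reported. The others with values or calls in the text were chosen after their values were seen: Abra, Baiap2, Bambi, Cdkn1b, Dgat2, Dsc2, Dsg2, Epha4, G0s2, Id2, Id3, Ier3, Irf2bp2, Jup, Lbh, Lmod2, Lrrc10, Mef2c, Mxd4, Myoz2, Pfn2, Plin4, Ppfibp1, Prickle1, Prox1, Rasgrp3, Sgms1, Trim25, Vcam1, Wipf3. The result of 1 gene list is not reported here. The members and the 59 gene lists were chosen with earlier results of these data known. Promoters with inverted hexamers were to be shown, and as none was found, those with 1 hexamer and the largest rises are shown. Alternatives varied the pseudocount, filter, scaling, probe set choice, variance trend, block and arrays fitted.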

Additional observations from a re-analysis of the deposited data

How the results depend on the processing

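With 2 arrays per group the calls lean on the experiment block and on a variance shared between genes. Without the block, which the pairing of arrays within experiments supplies, CVZ against vehicle gave 205 probe sets (177 higher, 28 lower) in place of 1528, CVZ against COR 0 (0 higher, 0 lower) in place of 219, and CVZ against ALD 22 (21 higher, 1 lower) in place of 828. Without the variance trend the counts were 651 (449 higher, 202 lower), 0 (0 and 0) and 85 (72 and 13). Without the level filter CVZ against COR gave 127 (95 and 32), and 1385 probe sets (858 and 527) were 2-fold in both experiments in place of 475. A filter at the 60th percentile left 69 in place of 124 lower ones, since fewer probe sets were tested. Leaving out each array in turn gave 1030 to 1622 for CVZ against vehicle (626 to 990 higher, 275 to 632 lower), 64 to 278 against COR (43 to 202 higher, 16 to 80 lower) and 522 to 895 against ALD (308 to 574 higher, 138 to 322 lower). In 1 experiment alone 1213 to 1274 probe sets were 2-fold (707 to 755 higher, 458 to 567 lower). Of 423 called genes among those named and listed, 112 kept their call under all 19 alternatives, 311 lost it without the block, 153 without the trend, 146 when some 1 array was left out, 45 without the filter, 27 with the mean of the gene's probe sets, 17 under trimmed-mean scaling and 13 under quantile scaling. Calls lost without the trend include those of Boc, Btg1, Cyp51, Ddit4l, Dsg2, Epha3, Fzd1, Gja1, Got1, Id3, Jup, Rasgrp3, Rheb and Slc3a2. Myl2, a light chain of ventricular myosin, was at log2 0.01 without a call, and at −1.30 (adjusted p = 2.9e-05 in limma) with the mean of its probe sets. List medians stayed within the spread between experiments in 952 of 1121 recomputed values. Except for the counts of tested probe sets and arrays, the cause was not tested.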

Other observations

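Probe sets without a gene name were 84 of the 351 that were 2-fold higher in both experiments and 30 of the 124 lower. The probe set 1380306_at had signals of 38.8 and 34.2 with CVZ, against 0.868 and 1.36 with vehicle (log2 4.98), and 1397225_at had 21.4 and 15.3 with CVZ, against 0.626 and 0.794 with vehicle (log2 4.56). Among the lower ones 1378981_at was at log2 −2.41 and 1378510_at at log2 −2.35. Their CVZ signals, 0.0853 and 0.214 and then 0.602 and 0.174, lay below the testing level, so these changes are values with no test. The probe set 1393559_at had 1.85 and 3.51 with CVZ, against 11.9 and 12.99 with vehicle (log2 −2.25). All of these probe sets are named here by their identifiers only.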
